A study of Mus musculus with 9 samples.

Results

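The genes described here are 10 targets of the transcription factor p53, chosen by name as a readout of Cre toxicity and of cell death: Cdkn1a, Mdm2, Bax, Bbc3, Pmaip1, Ccng1, Trp53inp1, Sesn2, Phlda3 and Eda2r. All 10 were found among the 27360 rows of the expression table, and all 10 passed the minimum of 1 cpm (a count scaled to the total of its library) and were among the 14029 genes tested. Their expression was measured by RNA sequencing of dissected midbrain from C57BL/6 mouse embryos at E13.5, in 9 libraries. The floxed control carried 2 floxed copies of Gpr161 and no Cre (Gpr161 f/f, 3 libraries), the Cre control carried 1 floxed copy with Wnt1-Cre (Gpr161 f/+;Wnt1-Cre, 3 libraries), and the conditional knockout (cKO) carried 2 floxed copies with Wnt1-Cre (Gpr161 f/f;Wnt1-Cre, 3 libraries). Wnt1-Cre is a transgene that drives the Cre recombinase in the dorsal neural tube, including the midbrain, and in neural crest. The dissected midbrain also holds cells outside that lineage, which were not separated. No group carried Cre without a floxed Gpr161 allele, so Cre and the loss of 1 Gpr161 copy cannot be told apart in the Cre control.

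p53 is held at a low level in healthy cells by Mdm2, a ubiquitin ligase that marks it for degradation. After DNA damage and other stress p53 accumulates, binds its response elements and turns on genes that stop the cell cycle, repair DNA or start apoptosis. Neural progenitors and neural crest are among the embryonic tissues in which p53 activation causes cell death. Cre cuts DNA, and high Cre levels are known to damage cells, which is why p53 targets serve as a readout of Cre toxicity.

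The promoters were searched for the element that p53 binds, which is made of a pair of like 10-base stretches. RefSeq promoter windows of GRCm38.p6, from 250 bases before to 50 bases after a start site, were matched by symbol for 8 of the 10 genes, and windows for Pmaip1 and Trp53inp1 were not used here. The 20-letter p53 consensus was searched on both strands with no spacer inside it. The sites with at most 3 mismatches are shown as the letters nearest to the p53 element in these windows, with that of Trp53, which encodes p53 itself, for comparison. Capitals mark the bases that fit the consensus, the inner 20 of the 30 bases are the site, and each is written 5′ to 3′ on the strand of its gene.
Cdkn1a (chr17:29090923-29090952, plus strand, 51 bases upstream): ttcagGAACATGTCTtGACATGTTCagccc
Ccng1 (chr11:40755457-40755486, minus strand, 195 bases upstream): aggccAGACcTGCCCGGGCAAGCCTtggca
Bax (chr7:45467085-45467114, minus strand, 211 bases upstream): tgacaAGcaTAtCCCAGGCAAGCTTtgaac
Bbc3 (chr7:16309481-16309510, plus strand, 97 bases upstream): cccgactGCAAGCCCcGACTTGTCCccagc
Trp53 (chr11:69580279-69580308, plus strand, 75 bases upstream): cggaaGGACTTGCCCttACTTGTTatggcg

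The sites of Cdkn1a and Ccng1 had 1 mismatch each, a closeness found in 0.0883% of the 32851 promoter windows. The sites of Bax, Bbc3 and Trp53 had 3 mismatches, and 6.29% of windows held a site with 3 or fewer. The best matches in the windows of Mdm2, Phlda3 and Sesn2 had 5 mismatches and that of Eda2r had 6. Cdkn1a and Bbc3 have windows at more than 1 start site, and the closest site of each gene is shown. The best match at the other Cdkn1a start had 5 mismatches, and those at the other Bbc3 starts had 5 and 6. These are matches of letters in 1 short window per start site, and a response element elsewhere in a gene would not be seen.

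Values are log2 expression levels normalized between libraries, and a difference of 1 is a change of 2 times. Each comparison is a difference of group means from limma, fitted to all 9 libraries, with the p adjusted by the Benjamini-Hochberg method over the 14029 genes, and a gene was called when its adjusted p was under 0.05. A differentially expressed gene (DEG) also had a fold change over 1.5. The sources do not say whether a library is 1 embryo or a pool, so the p-values measure the spread between these libraries. The deposited values look shrunk at low expression, so differences of weakly expressed genes are compressed.

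Before the p53 targets, the libraries were compared with their labels. Gpr161 itself, reported as 1 value per gene in which the deleted exons are not separated, was not lower in the libraries labelled cKO, with a log2 difference of 0.11 to the floxed control (limma, adjusted p = 0.223). The first principal component held 57.9% of the variance and ordered the libraries as floxed control, Cre control and cKO. Cre control replicate 1 stood apart on the second, at 16.2 against -7.0 to 2.5 for the other 8. The summed level of the Y-linked genes ranged from 34.0% to 156% of the floxed control mean, so the sexes were mixed, and Eda2r is X-linked.

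Among the genes of cell cycle arrest and of p53 feedback, Cdkn1a encodes p21, the inhibitor of cyclin-dependent kinases through which p53 stops cells before S phase. Its levels were 8.88, 9.07 and 9.11 in the floxed control, 8.96, 9.03 and 9.001 in the Cre control, and 9.07, 9.18 and 9.26 in cKO. The Cre control lay within the range of the floxed control, and the lowest cKO library lay within the range of the floxed control. Ccng1, a cyclin with a role in p53 feedback that lies on chr11:40748552-40755311, had levels of 10.68, 10.70 and 10.76 in the floxed control, 10.85, 10.80 and 10.78 in the Cre control, and 10.94, 10.98 and 10.9995 in cKO. Here no groups overlapped, and the order was floxed control, Cre control, cKO. Mdm2, the negative regulator of p53, stood at 10.95, 10.94 and 11.05 in the floxed control, 11.01, 10.92 and 10.98 in the Cre control, and 10.82, 10.86 and 10.90 in cKO. All 3 cKO libraries were below the 6 controls for Mdm2, opposite in direction to Ccng1.

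The apoptosis genes did not move together. Bax, the pore-forming effector of mitochondrial apoptosis, was at 11.43, 11.39 and 11.39 in the floxed control, 11.55, 11.31 and 11.37 in the Cre control, and 11.36, 11.40 and 11.41 in cKO. Its groups overlapped throughout, and Cre control replicate 1 was the highest library. Bbc3 encodes Puma, a BH3-only protein that sets off apoptosis by binding the survival proteins of the Bcl2 family. Its levels were 9.01, 8.94 and 8.996 in the floxed control, 9.05, 9.06 and 9.06 in the Cre control, and 8.87, 8.86 and 8.88 in cKO. Each Cre control library was above, and each cKO library below, every floxed control library. Pmaip1, which encodes the BH3-only protein Noxa, stood at 6.14, 6.11 and 5.95 in the floxed control, 6.13, 6.28 and 6.17 in the Cre control, and 6.40, 6.23 and 6.31 in cKO. The cKO libraries were above the floxed control and overlapped the Cre control. Trp53inp1, a stress-induced nuclear protein that promotes p53-dependent apoptosis, was at 11.08, 11.003 and 11.14 in the floxed control, 10.96, 10.99 and 10.97 in the Cre control, and 10.85, 10.82 and 10.78 in cKO. It followed the reverse of the order of Ccng1, with no overlap between groups.

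The remaining genes act in stress control and signalling. Sesn2 encodes Sestrin 2, which restrains mTORC1 under stress and is a target of the stress factor Atf4 as well as of p53. Its levels were 8.30, 8.39 and 8.41 in the floxed control, 8.41, 8.65 and 8.56 in the Cre control, and 8.65, 8.75 and 8.76 in cKO. The cKO libraries were above the floxed control, and the lowest of them overlapped the highest Cre control library. Phlda3, a repressor of Akt signalling, stood at 8.08, 8.28 and 8.11 in the floxed control, 8.20, 8.42 and 8.37 in the Cre control, and 8.51, 8.44 and 8.53 in cKO, so that the cKO libraries were above all 6 controls. Eda2r, the ectodysplasin A2 receptor of the tumour necrosis factor receptor family, on chrX:97333840-97377216, had levels of 6.45, 6.41 and 6.45 in the floxed control, 6.58, 6.61 and 6.64 in the Cre control, and 6.93, 6.79 and 6.89 in cKO. Its groups did not overlap, in the order floxed control, Cre control, cKO.

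**Figure D1:**
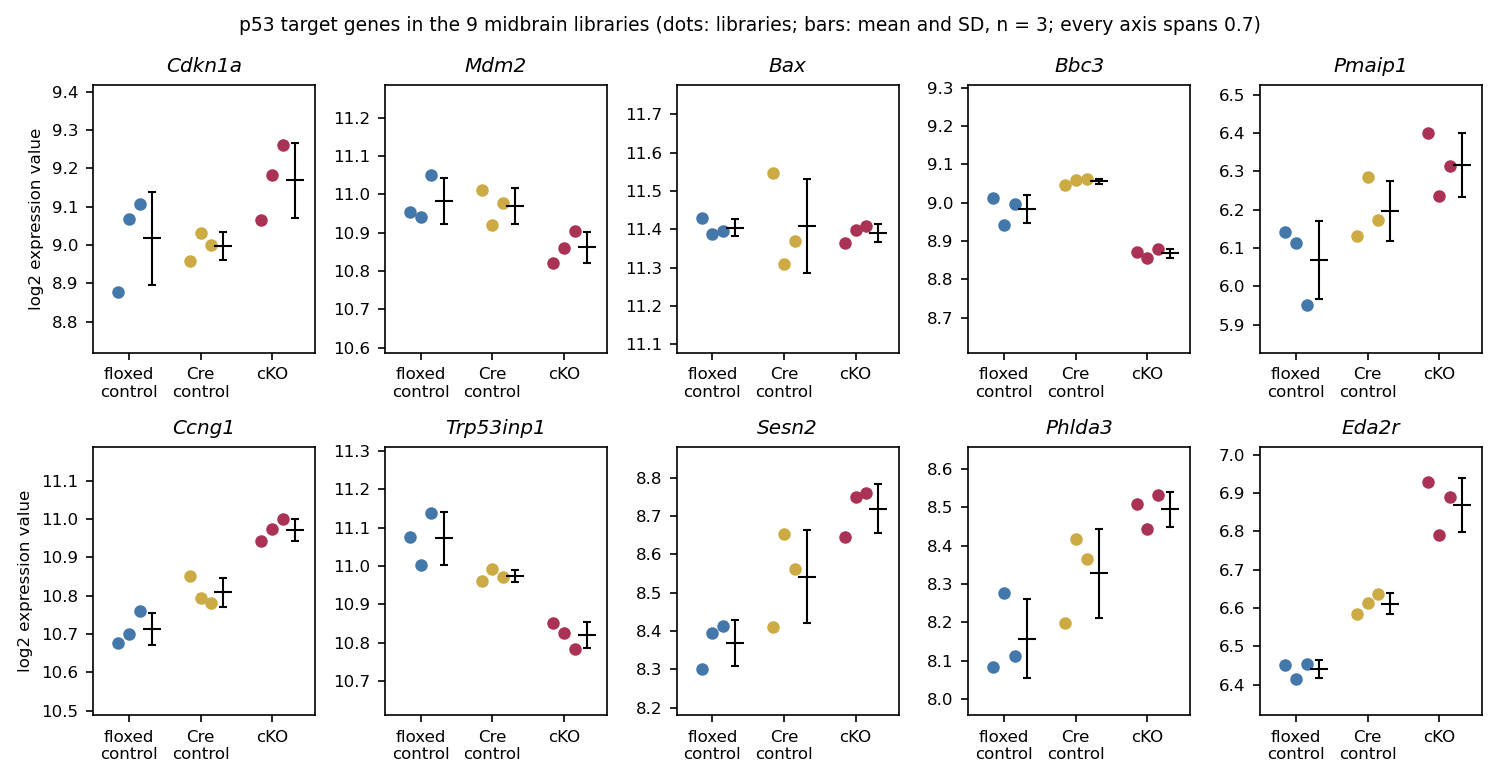
Log2 expression of the 10 p53 target genes in each library (dots), with the mean and SD of each genotype (bars, n = 3). Every vertical axis spans the same range. Ccng1 and Eda2r step up from floxed control to Cre control to cKO, and Trp53inp1 steps down. Cdkn1a, Mdm2, Bax, Pmaip1, Sesn2 and Phlda3 overlap between the controls. Of all genes tested, 22.8% did not overlap between the controls, and 26.2% had every cKO library outside the 6 controls. The share of genes with all 3 genotypes apart was not counted.

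Across the 10 genes, every cKO library was outside the range of the 6 controls for 6, beside 26.2% of the genes tested. Ccng1, Phlda3 and Eda2r were above, a pattern held by 14.7% of the genes tested, and Mdm2, Bbc3 and Trp53inp1 were below, a pattern held by 11.5%. The Cre control and the floxed control did not overlap for 4 of the 10 (22.8% of the genes tested). Bbc3, Ccng1 and Eda2r were higher in every Cre control library (10.7%), and Trp53inp1 was lower (12.1%). The mean of the Cre control lay between the other means for 7 of the 10, against 64.4% of the genes tested.

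The Cre control was compared to the floxed control to ask whether Cre, together with the loss of 1 Gpr161 copy, moved p53 targets. None of the 10 genes was called, and no change as large as a fold of 1.5 lay within the 95% interval of any of them. Few genes of any kind changed that much. The 5th and 95th percentiles of the log2 differences of all genes tested were -0.194 and 0.202. With limma, 0 of 10 passed the adjusted p, beside 0.057% of the genes tested (8 genes). None of the 10 was a DEG, beside 0.0285% of the genes tested, and 5 of 10 had an unadjusted p under 0.05, beside 17.5% of the genes tested. Those 5 were Eda2r, with a log2 difference of 0.17 ± 0.05 (SE; adjusted p = 0.188), Sesn2, at 0.17 ± 0.07 (adjusted p = 0.2497), Phlda3, at 0.17 ± 0.07 (adjusted p = 0.271), Ccng1, at 0.10 ± 0.04 (adjusted p = 0.253), and Trp53inp1, at -0.10 ± 0.04 (adjusted p = 0.276). The intervals of the fold change reached at most 1.26, for Phlda3, and at least 0.875, for Trp53inp1. The median log2 difference over the 10 genes was 0.084, and that over all genes tested was -0.00101.

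For the arrest and death effectors the differences between the controls were small. Cdkn1a differed by -0.02 ± 0.07 (fold change 0.986, interval 0.883 to 1.10), Mdm2 by -0.01 ± 0.04 (0.991, 0.925 to 1.06), and Bax by 0.0044 ± 0.06 (1.003, 0.921 to 1.09). The signs of these 3 differences changed when single libraries were left out. Bbc3 differed by 0.07 ± 0.04 (1.05, 0.983 to 1.12) and Pmaip1 by 0.13 ± 0.07 (1.09, 0.980 to 1.22), with adjusted p = 0.409 and 0.367 in limma. A p above the threshold does not show that the controls were equal for these genes.

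cKO was then compared to the floxed control, which lacks Cre. Of the 10 genes, 6 were called (38.3% of the genes tested were): Eda2r, Sesn2, Phlda3, Ccng1 and Pmaip1 rose (19.5% of genes tested rose), and Trp53inp1 fell (18.8% fell). Eda2r rose most, by 0.43 ± 0.05 on the log2 scale, a fold change of 1.35 (95% interval 1.24 to 1.46, limma, adjusted p = 5.95e-04). Sesn2 rose by 0.35 ± 0.07, a fold change of 1.27 (1.14 to 1.42, adjusted p = 0.00400), and Phlda3 by 0.34 ± 0.07, a fold change of 1.26 (1.13 to 1.41, adjusted p = 0.00605). Ccng1 rose by 0.26 ± 0.04, a fold change of 1.20 (1.13 to 1.27, adjusted p = 0.00128). Trp53inp1 fell by 0.25 ± 0.04, to a fold change of 0.840 (0.786 to 0.897, adjusted p = 0.00198). None of the 10 reached the fold limit of a DEG, beside 2.92% of the genes tested. The median log2 difference of the 10 was 0.20, and that of all genes tested was 0.0112.

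Pmaip1 rose by 0.25 ± 0.07 (limma, adjusted p = 0.0203), and this call was lost without floxed control replicate 3, cKO replicate 1 or cKO replicate 3, with an adjusted p of up to 0.0808. The other 5 calls stood when each library was left out in turn. Cdkn1a, at 0.15 ± 0.07 (adjusted p = 0.118), and Bax, at -0.01 ± 0.06 (adjusted p = 0.869), were not called. Mdm2, at -0.12 ± 0.04 (adjusted p = 0.0560), and Bbc3, at -0.12 ± 0.04 (adjusted p = 0.0599), lay just above the threshold. Both passed it under other settings, Mdm2 when the libraries were centred on their medians and Bbc3 under quantile normalization, among others.

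cKO and Cre control, which both carry Wnt1-Cre, differ in the second floxed copy of Gpr161. Here 4 of the 10 genes were called, beside 9.72% of the genes tested: Eda2r and Ccng1 rose (4.86% of genes tested rose), and Bbc3 and Trp53inp1 fell (4.85% fell). Eda2r rose by 0.26 ± 0.05, a fold change of 1.20 (1.10 to 1.30, limma, adjusted p = 0.0213), and Ccng1 by 0.16 ± 0.04, a fold change of 1.12 (1.05 to 1.19, adjusted p = 0.0341). Bbc3 fell by 0.19 ± 0.04, to a fold change of 0.879 (0.822 to 0.940, adjusted p = 0.0307), and Trp53inp1 fell by 0.15 ± 0.04, to a fold change of 0.898 (0.841 to 0.960, adjusted p = 0.0490). None of the 10 was a DEG, beside 0.563% of the genes tested, and 8 of 10 had an unadjusted p under 0.05, beside 29.3%. Sesn2, at 0.18 ± 0.07 (adjusted p = 0.127), Cdkn1a, at 0.17 ± 0.07 (adjusted p = 0.142), Phlda3, at 0.17 ± 0.07 (adjusted p = 0.162), Pmaip1, at 0.12 ± 0.07 (adjusted p = 0.284), and Mdm2, at -0.11 ± 0.04 (adjusted p = 0.143), were not called, nor was Bax, at -0.02 ± 0.06 (adjusted p = 0.857).

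These 4 calls depended on which libraries were in the fit. No gene of the 10 was called without Cre control replicate 2, Cre control replicate 3, cKO replicate 1 or cKO replicate 3, or when the fit held only the 6 libraries compared, and Eda2r alone was called without cKO replicate 2. All 4 were called without Cre control replicate 1. The share of all genes called also moved, from 9.72% to 23.5% without Cre control replicate 1 and to between 1.69% and 6.02% without any other single library. The highest adjusted p over the alternatives was 0.0873 for Eda2r, 0.102 for Bbc3, 0.115 for Ccng1 and 0.126 for Trp53inp1.

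**Figure D2:**
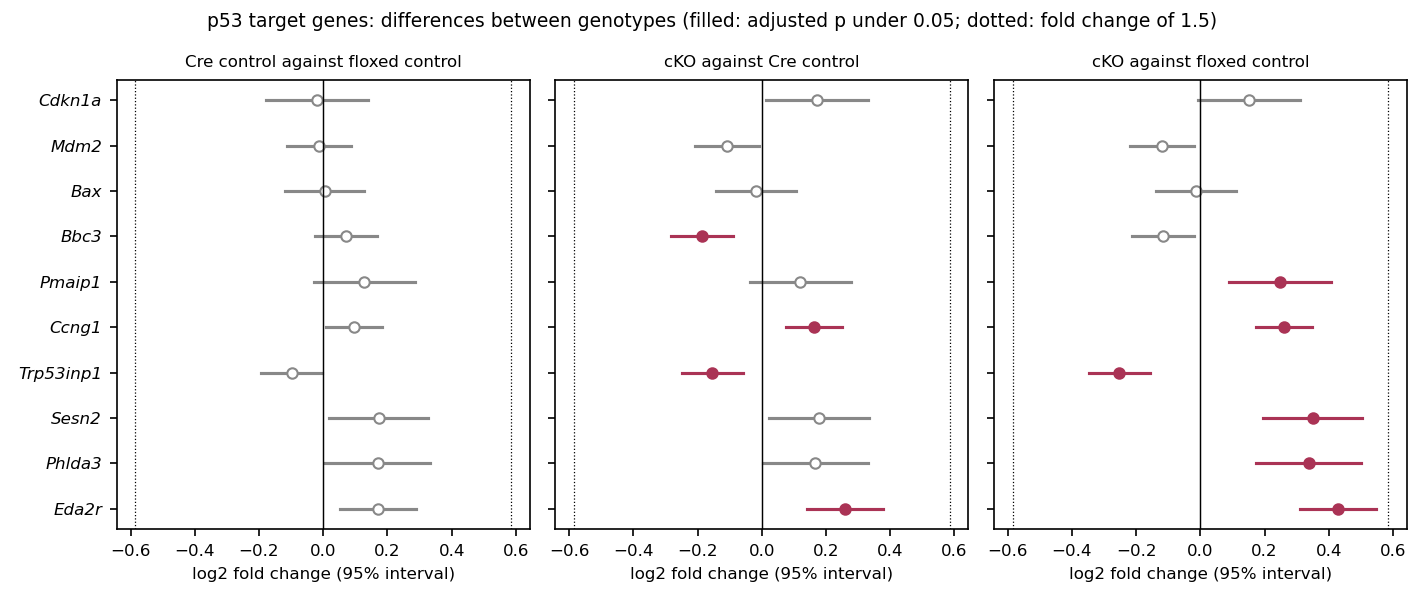
Log2 fold changes of the 10 p53 target genes (points, limma) with 95% intervals (lines) in the 3 comparisons of genotypes. Filled points have an adjusted p under 0.05 and dotted lines mark a fold change of 1.5. No point is filled between the controls, where 0.057% of all genes tested were called. Between cKO and Cre control 4 are filled, beside 9.72% of all genes tested. Between cKO and floxed control 6 are filled, beside 38.3%. No interval reaches a dotted line.

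The mean of the Cre control and cKO, the genotypes that carry Cre, was also compared to the floxed control, and this comparison shares its libraries with those above. Of the 10 genes, 6 were called, beside 27.3% of the genes tested. Eda2r (0.30 ± 0.05, limma, adjusted p = 0.00339), Sesn2 (0.26 ± 0.06, 0.0128), Phlda3 (0.25 ± 0.06, 0.0172), Pmaip1 (0.19 ± 0.06, 0.0457) and Ccng1 (0.18 ± 0.03, 0.00690) were higher in this mean, and Trp53inp1 (-0.17 ± 0.04, 0.00933) was lower. Both genotypes also differ from the floxed control in the loss of Gpr161, so Cre and that loss cannot be told apart here. None was a DEG, beside 0.77% of the genes tested. Only 3 remained called without floxed control replicate 1 (Ccng1, Trp53inp1 and Eda2r) or without floxed control replicate 3 (Ccng1, Sesn2 and Eda2r). The Pmaip1 call was lost in 7 of 9 omissions of a library. Cdkn1a, at 0.07 ± 0.06 (adjusted p = 0.457), and Bax, at -0.0044 ± 0.05 (adjusted p = 0.954), were not called.

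p53 and the genes that control it were taken from a list of 16, of which 14 were tested. Against the floxed control, 3 rose and 2 fell in cKO, 35.7% called beside 38.3% of all genes tested. Against the Cre control 1 rose and 1 fell, 14.3% beside 9.72%. Trp53 was at 10.73, 10.75 and 10.73 in the floxed control, 10.79, 10.78 and 10.80 in the Cre control, and 10.97, 10.99 and 10.87 in cKO, so that the groups did not overlap. Its mRNA rose in cKO by 0.20 ± 0.04 over the floxed control (limma, adjusted p = 0.00340) and by 0.15 ± 0.04 over the Cre control (adjusted p = 0.0418). The latter call was lost in 4 of 6 omissions of a library. The checkpoint kinases Chek1 and Chek2 rose over the floxed control by 0.43 ± 0.08 and 0.43 ± 0.10 (adjusted p = 0.00323 and 0.00745), and were not called against the Cre control (adjusted p = 0.0649 and 0.368). Mdm4, a partner of Mdm2 that inhibits p53, fell by 0.15 ± 0.05 (adjusted p = 0.0315) and by 0.23 ± 0.05 (adjusted p = 0.0229), and each call was lost in 4 of 6 omissions. Trp53bp1, a DNA break responder named after its values were seen, fell by 0.24 ± 0.08 against the floxed control (adjusted p = 0.0426), a call lost in 5 of 6. p53 is controlled mainly through the stability of its protein, which these libraries do not measure.

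A further list of 30 p53 targets had 27 members tested, and most did not pass. Against the floxed control 8 rose and 2 fell in cKO, 37.0% beside the 38.3% of all genes tested, and against the Cre control 3 rose, 11.1% beside 9.72%. Btg2, an antiproliferative gene that also marks neurogenic progenitors, rose by 0.50 ± 0.06 (limma, adjusted p = 5.80e-04) and by 0.27 ± 0.06 (adjusted p = 0.0259). Psrc1, which encodes a spindle protein, Siva1, a death-associated gene, and Aen, which encodes an apoptosis nuclease, rose over the floxed control by 0.57 ± 0.09, 0.46 ± 0.08 and 0.25 ± 0.04 (adjusted p = 0.00185, 0.00288 and 0.00195). These 3 genes were not called against the Cre control (adjusted p = 0.0604, 0.101 and 0.05003). The other genes called against the Cre control, named after their values were seen, were Pidd1, which encodes an adaptor that activates caspase-2, and the kinase gene Plk3. Pidd1 rose by 0.28 ± 0.07 over the floxed control and by 0.32 ± 0.07 over the Cre control (limma, adjusted p = 0.00832 and 0.0219), the second lost in 3 of 6 omissions. Plk3 rose by 0.21 ± 0.07 and 0.25 ± 0.07 (adjusted p = 0.0331 and 0.0476), calls lost in 4 of 6 and 6 of 6. The genes that fell against the floxed control, also named after their values were seen, were Rprm, a mediator of arrest in G2, by 0.33 ± 0.07, and Rrm2b, a subunit of ribonucleotide reductase, by 0.19 ± 0.05 (adjusted p = 0.00498 and 0.0110).

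Perp, an epithelial desmosome gene and p53 target, was the 1 DEG of that list and is named here after its values were seen. It stood at 6.81, 6.98 and 6.97 in the floxed control, 6.80, 7.98 and 7.52 in the Cre control, and 8.26, 8.01 and 8.14 in cKO. The Cre control libraries were spread from the floxed level to near the cKO level. The log2 difference between cKO and floxed control was 1.22 ± 0.23 (limma, adjusted p = 0.00312). The summed level of 10 mesenchyme and meninges markers was 91.6% of the floxed control mean in Cre control replicate 1, where Perp was low, and 152% and 133% in replicates 2 and 3. In floxed control replicates 1, 2 and 3 it was 96.65%, 134% and 69.7%, where Perp was at 6.81, 6.98 and 6.97. It was between 150% and 154% in cKO. The part of these markers in the Perp result was not tested.

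In the Bcl2 family, the genes called in cKO against the floxed control were 3 of 7 death-promoting and 2 of 4 survival genes, beside 38.3% of all genes tested. Against the Cre control, 1 of 7 and 1 of 4 were called, beside 9.72%. Of the 7 death-promoting genes of the Bcl2 family tested beside the 10 targets, Bak1, a pore former like Bax, rose in cKO over the floxed control, by 0.29 ± 0.05 (limma, adjusted p = 0.00181), while the BH3-only genes Hrk and Bid fell, by 0.52 ± 0.07 and 0.18 ± 0.06 (adjusted p = 9.86e-04 and 0.0428). Hrk, a gene of neuronal apoptosis, also fell against the Cre control, by 0.32 ± 0.07 (adjusted p = 0.0294), a call lost in 4 of 6 omissions. Of the 4 survival genes, Bcl2 fell against both controls, by 0.29 ± 0.04 and 0.16 ± 0.04 (adjusted p = 0.00106 and 0.0431), the second lost in 5 of 6 omissions. Bcl2l1, which encodes Bcl-xL, fell against the floxed control by 0.13 ± 0.04 (adjusted p = 0.0421) and was at -0.01 ± 0.04 against the Cre control (adjusted p = 0.902). The Bid and Bcl2l1 calls were each lost in 4 of 6 omissions.

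Of 17 caspase and apoptosome genes, 4 rose and 1 fell in cKO compared to the floxed control, 29.4% called beside 38.3% of all genes tested. Compared to the Cre control 1 rose, 5.88% beside 9.72%. Casp8, the initiator of receptor-mediated death, rose by 0.36 ± 0.06 over the floxed control (limma, adjusted p = 0.00228). Aifm1, a mitochondrial flavoprotein, rose against both controls, by 0.23 ± 0.05 and 0.19 ± 0.05 (adjusted p = 0.00679 and 0.0430), the second lost in 5 of 6 omissions. Casp6 rose over the floxed control by 0.16 ± 0.05 (adjusted p = 0.0399), a call lost in 4 of 6. Birc3, an inhibitor of apoptosis named after its values were seen, rose by 0.30 ± 0.11 (adjusted p = 0.0480), a call lost in 5 of 6. Among 8 death receptor and necroptosis genes, Tnfrsf1a (0.48 ± 0.10), Ripk3 (0.41 ± 0.09), Fadd (0.28 ± 0.06) and Ripk1 (0.22 ± 0.06) rose over the floxed control, with adjusted p = 0.00426, 0.00760, 0.00461 and 0.0130, the last lost in 2 of 6. These were 4 of 8, beside 38.3% of all genes tested. None of the 8 was called against the Cre control (limma), beside 9.72%. Caspases act through cleavage of the protein, which RNA does not show.

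**Figure D3:**
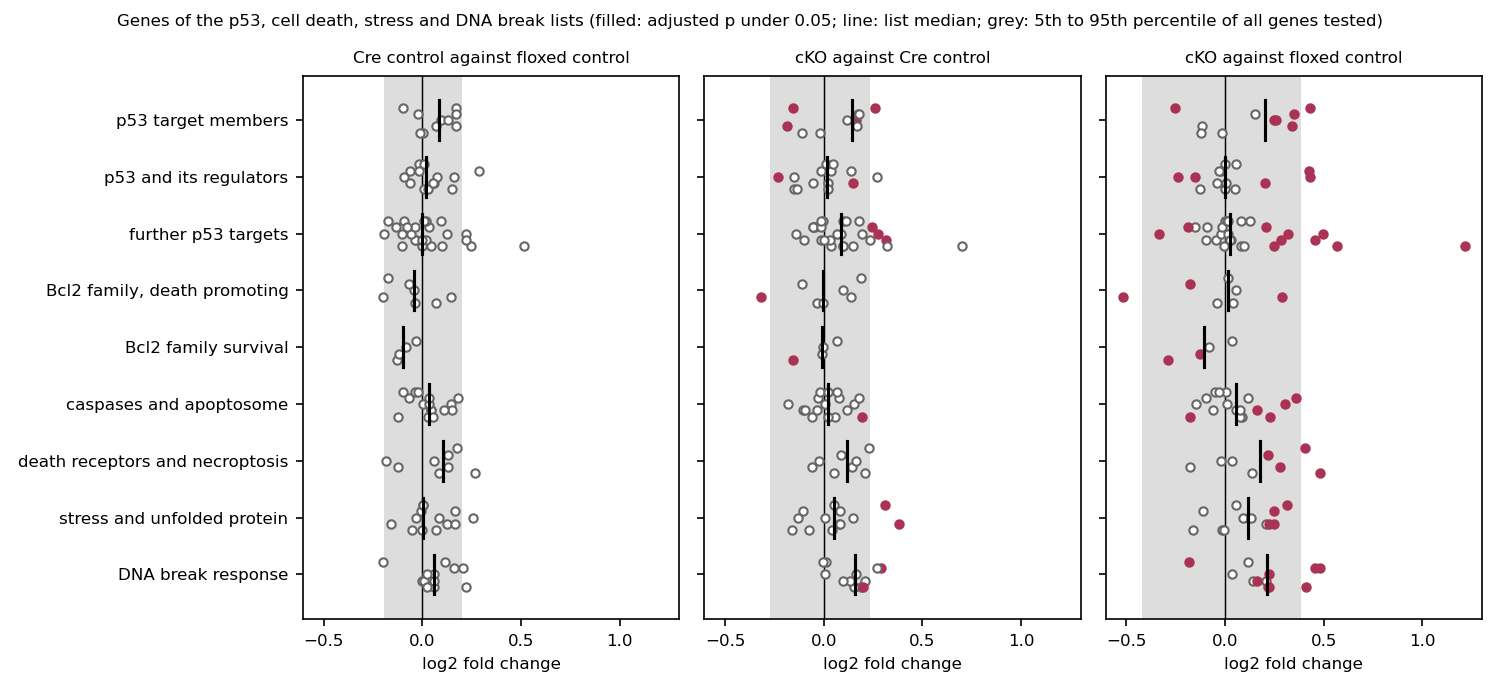
Log2 fold changes of each tested gene of the p53, cell death, stress and DNA break lists (points, filled where the adjusted p is under 0.05) in the 3 comparisons, with the list median (line) and the 5th to 95th percentile of all genes tested (grey). No point is filled between the controls, where 0.057% of all genes tested were called. Against the floxed control, filled points lie on both sides of 0 in the list of the 10 targets and in those of the p53 regulators, the further targets, the death-promoting Bcl2 family genes, the caspases and the DNA break response.

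Markers of cell state and cell type moved with the genotype, and their counts stand beside 38.3% of all genes tested that were called against the floxed control (19.5% higher, 18.8% lower) and 9.72% against the Cre control (4.86% higher, 4.85% lower). All 16 cell cycle genes rose in cKO compared to the floxed control and 9 compared to the Cre control, and their summed level was 128% to 152% of the floxed control mean in cKO and 110% to 122% in the Cre control. All 10 neuronal markers fell compared to the floxed control and 4 compared to the Cre control, with a summed level of 66.2% to 75.6% in cKO and 74.7% to 93.7% in the Cre control. Of 8 progenitor markers, 5 rose compared to the floxed control and 3 compared to the Cre control (112% to 118% in cKO, 96.7% to 106% in the Cre control). In bulk tissue, fewer cells of a type and less RNA per cell cannot be told apart. The summed level of the 10 p53 targets themselves stayed between 98.3% and 103% of the floxed control mean in every library, a sum in which Bax, Mdm2, Trp53inp1 and Ccng1 weigh most. The part of the cell cycle, neuronal and progenitor genes in the differences of single p53 targets was not tested.

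Markers of other cells were also present. None was at 0 in every library. Compared to the floxed control, 7 of 10 mesenchyme and meninges markers, 4 of 8 endothelial and 7 of 11 erythroid markers rose in cKO, beside 19.5% of all genes tested. Of 10 microglial and macrophage markers 1 rose, which is below that share. Compared to the Cre control, 5 of 11 erythroid markers rose, 45.5% beside 4.86%, and none of the other 3 lists had a call. In cKO the erythroid sum was 119% to 230% of the floxed control mean (76.4% to 130% within the floxed control, 91.9% to 106% in the Cre control), the endothelial sum 114% to 123% (87.1% to 112% and 94.4% to 120%), and the microglial and macrophage sum 103% to 120% (89.9% to 113% and 101% to 112%). Of 8 midbrain markers, 3 fell compared to the floxed control, 37.5% beside 18.8% of all genes tested, and 1 fell compared to the Cre control, 12.5% beside 4.85%. Their sum was 82.6% to 92.4% in cKO (92.4% to 107% in the floxed control, 97.3% to 102% in the Cre control). The sum of 5 forebrain markers, of which 3 were tested and 1 fell against both controls, was 75.9% to 77.6% in cKO, 96.5% to 106% in the floxed control and 88.8% to 109% in the Cre control. None of these lists had a called gene between the controls, where 0.057% of the genes tested were called. Their part in the differences of the p53 targets was not tested.

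**Figure D4:**
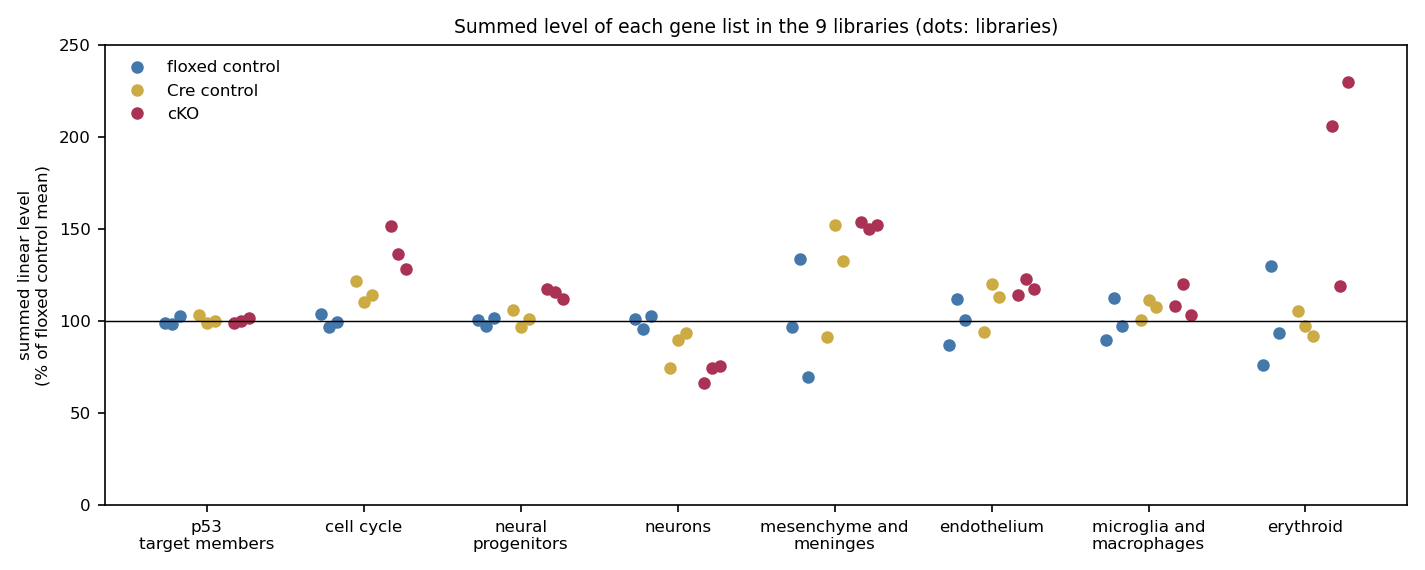
Summed linear level of the 10 p53 targets, the cell cycle genes and the cell type markers in each library (dots), as a percentage of the floxed control mean (line at 100). The sum of the p53 targets stays between 98.3% and 103% in all 9 libraries. Bax, Mdm2, Trp53inp1 and Ccng1 weigh most in it, so it does not show the changes of single targets. Of the 10, 5 rose and 1 fell in cKO against the floxed control, beside 19.5% and 18.8% of all genes tested. The cell cycle sum is higher and the neuronal sum lower in cKO than in every floxed control library.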

How the data were processed

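RNA from E13.5 mouse midbrain, 3 libraries for each of 3 genotypes, was sequenced by the authors as poly-A selected NEBNext Ultra libraries. They deposited 1 table of log2 values, normalized between libraries, between -2.12 and 17.95. The submitters' processing notes name FastQC 0.10.1, kallisto 0.46.1, DESeq2 and mm10. The transformation is not given in the sources used here, and its shrinkage at low expression was read from the values. The table holds no read counts, so the depth is unknown and no interval from counts is given. After the log2 scale was undone, each library summed to between 26605102 and 27491808. Columns named WT, Het and KO were matched to the labels by genotype and number.

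Named genes that reached 1 cpm on this linear scale in 3 or more libraries were tested with limma 3.58.1 in R 4.3.3, with eBayes with a trend on mean expression, two-sided, and Benjamini-Hochberg adjustment. The fit was tested on simulated data. The genes, lists and tests were chosen with earlier results of these data known. Named genes were the 10 targets, Trp53, Mdm4, up to 4 genes of each list with the smallest p in cKO against floxed control among those called in any comparison, and the 5 genes most correlated with Cdkn1a. Other genes were named after their values were seen, and the values of some genes of these lists are not reported here. Alternatives were other filters, thresholds, scalings and variance models, the libraries in the fit, a replicate block, the Y-linked genes as a covariate, and leaving out each library. Libraries with the same replicate number were not shown to be paired and were not paired in the fit. Gene positions are from GENCODE M21 on GRCm38 and promoter windows from RefSeq. With 3 libraries against 3, an exact permutation test cannot reach p < 0.05 and was not used.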

Additional observations from a re-analysis of the deposited data

How the results depend on the processing

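Under the alternatives tried, no p53 target was called between Cre control and floxed control at an adjusted p, beside at most 0.406% of all genes. At an unadjusted p, 5 of 10 were, beside 17.5% of the genes tested. With a fold change over 1.5 required, 0 of the 10 passed in any comparison. Between cKO and Cre control, the count of 4 went to 8 at an unadjusted p (29.3% of all genes) and to 0 with only the libraries compared (3.11%). It ranged from 0 to 4 when single libraries were left out (1.69% to 23.5% of all genes). Between cKO and floxed control the range over single omissions was 5 to 6, beside 25.7% to 34.4% of all genes. Between the Cre carrying genotypes and the floxed control it was 3 to 6, beside 9.99% to 31.0%. With the replicate number as a block, 8, 3, 0 and 5 of the 10 were called (cKO against floxed control, cKO against Cre control, Cre control against floxed control, and Cre carrying against floxed control). The shares of all genes called with the block were 40.5%, 12.6%, 0.0642% and 29.8%, in the same order. Cdkn1a then passed in cKO against floxed control (limma, adjusted p = 0.0482). Libraries with the same number correlated between -0.027 and 0.26 after removal of the genotype means (median 0.10, 9 pairs), and others between -0.28 and 0.16 (median -0.053, 18 pairs). At a minimum of 5 cpm, Pmaip1 and Eda2r were not tested.

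Signs changed for differences near 0. For Bax, cKO against floxed control was 0.0153 under quantile normalization and 0.0062 with the Y-linked covariate, Cre control against floxed control was -0.0011 with median centring, and Cre carrying against floxed control was 0.0208 under quantile normalization and 0.01 with the Y-linked covariate. Leaving out single libraries gave Bax ranges of -0.0225 to 0.0002 (cKO against floxed control), -0.0669 to 0.051 (cKO against Cre control), -0.0643 to 0.0537 (Cre control against floxed control) and -0.0388 to 0.0202 (Cre carrying against floxed control). It gave Cdkn1a -0.0904 to 0.0237 and Mdm2 -0.0344 to 0.0217 between the controls, Cdkn1a -0.0042 to 0.1099 for Cre carrying against floxed control, and Bcl2l1 -0.0393 to 0.0166, Hspa5 -0.0039 to 0.1373 and Lig4 -0.0362 to 0.0633 between cKO and Cre control, where Lig4 was -0.0026 with the Y-linked covariate. All these values are log2 differences, and none was called. The depth is unknown, and with 3 libraries per genotype small differences can be missed.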

Other observations

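Genes of the DNA break response and of the integrated stress and unfolded protein response were counted beside the p53 targets, from lists chosen with earlier results of these data known. Of 12 DNA break genes tested, 7 rose and 1 fell in cKO compared to the floxed control, 66.7% of the list beside 38.3% of the genes tested, and 2 rose compared to the Cre control, 16.7% beside 9.72%. H2afx, whose product is the histone phosphorylated around DNA breaks, rose by 0.45 ± 0.06 on the log2 scale (limma, adjusted p = 8.73e-04) and by 0.29 ± 0.06 (adjusted p = 0.0237), the second lost in 4 of 6 omissions of a library. The recombination gene Brca1 rose by 0.41 ± 0.06 over the floxed control (adjusted p = 0.00131) and was not called against the Cre control (adjusted p = 0.0853). Xrcc5, the Ku80 subunit of end joining, rose against both controls, by 0.22 ± 0.05 and 0.20 ± 0.05 (adjusted p = 0.00868 and 0.0437), the second lost in 5 of 6 omissions. Lig4, a ligase of end joining named after its values were seen, fell by 0.19 ± 0.06 against the floxed control (adjusted p = 0.0315), a call lost in 4 of 6. None of the 12 was called between the controls (limma), beside 0.057% of the genes tested. H2afx and Brca1 are also expressed in S phase, and all 16 cell cycle genes rose in cKO compared to the floxed control. Their part in these differences was not tested.

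Of 13 stress and unfolded protein genes, 4 rose in cKO compared to the floxed control, 30.8% of the list beside 38.3% of the genes tested, and 2 compared to the Cre control, 15.4% beside 9.72%. Ppp1r15a, which encodes the phosphatase subunit Gadd34, rose by 0.32 ± 0.08 and 0.31 ± 0.08 (limma, adjusted p = 0.0119 and 0.0400), and Trib3, an Atf4 target, by 0.22 ± 0.08 and 0.38 ± 0.08 (adjusted p = 0.0437 and 0.0201). Hspa5, the chaperone BiP, and Edem1, of protein degradation in the endoplasmic reticulum, each rose by 0.25 over the floxed control (adjusted p = 0.0144 and 0.0461), and Edem1 lost its call in 6 of 6 omissions, Hspa5 in 1. Trib3 and Ppp1r15a lost their calls against the Cre control in 2 and 5 of 6, and Trib3 lost that against the floxed control in 4 of 6.

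Over the 9 libraries, the genes most correlated with Cdkn1a were Bckdha (Pearson r = 0.963), Gna12 (0.941), Tmem198b (0.929), Rragc (0.928) and Pcdh12 (0.922), picked as the highest of all genes tested and given as a description. None of these 5 was called in any of the 4 comparisons (limma), and neither was Cdkn1a, to which they were matched. The absence of calls thus follows in part from how they were picked. Of all genes tested, 38.3% were called in cKO against floxed control and 9.72% in cKO against Cre control. The shares were 0.057% in Cre control against floxed control and 27.3% in Cre carrying against floxed control.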
